A study of Mus musculus with 45 samples.

Results

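The comparison of alpha-eleostearic acid (ESA) with its ethanol vehicle in uninduced fibroblasts rests on 6 of the 45 RNA-seq libraries of the study. They are the 3 libraries labelled ESA and the 3 labelled EtOH among cells that had met no senescence inducer, paired by the replicate number in their names. The cells were primary mouse embryonic fibroblasts of wild-type (WT) genotype, which are connective-tissue cells grown out of embryos and not yet immortalized. The strain, the age of the embryos and the passage number are not given in the sources used here, and the series describes the 3 libraries of a group as biological replicates. Exposure lasted 12 h. The dose is given in 2 ways, as 2 µg/mL in the label of each ESA library and as 10 µg/mL in the treatment protocol. Other groups used below share the cells and the exposure time. One group received ESA after 1 h of ferrostatin-1 (Fer-1) at 2 µM, and another the methyl ester of ESA (ESA-Me), which carries 2 µg/mL in its labels and 20 µg/mL in the protocol. The remaining groups had been made senescent with 200 µM hydrogen peroxide (H2O2) or 2 µM etoposide for 24 h, followed by 5 days of culture, before vehicle or ESA was added. No group received Fer-1 alone.

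ESA is a fatty acid of plant seed oils whose double bonds are conjugated, which makes it easily oxidized. Ferroptosis is a form of cell death driven by iron-dependent peroxidation of the fatty acids in membrane lipids. GPX4 reduces lipid hydroperoxides with glutathione, the cystine importer encoded by Slc7a11 supplies the cysteine for glutathione, and Fer-1 traps the radicals that carry the chain reaction. Electrophiles released by lipid peroxidation modify KEAP1, which then no longer sends the transcription factor NRF2 to the proteasome. NRF2, paired with a small MAF protein, turns on genes for glutathione, thioredoxin, heme breakdown and NADPH. These statements are background and not results of these libraries.

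The 3 vehicle libraries held 21.3, 30.2 and 29.5 megareads in genes, and the 3 ESA libraries 20.8, 27.5 and 27.9 megareads, so depth was close within each pair. Mitochondrial transcripts took 1.28% to 1.42% of counts with vehicle and 1.54%, 0.969% and 1.27% with ESA. ESA replicate 2 stood apart from the other ESA libraries. Scaled for depth, its counts gave a chi-square of 62.7 per gene against ESA replicate 1 and 48.7 against replicate 3, while replicates 1 and 3 gave 11.7 against each other. The same measure between vehicle libraries was 11 to 25.6. Replicate 2 also differed from the others in Xist, the RNA of the inactive X chromosome, with 350 CPM in its vehicle library and 217 CPM in its ESA library. CPM, used for all levels here, is the count per megaread of a library whose size was scaled by TMM. In the other 4 libraries Xist was at most 0.0719 CPM. Vehicle cells had the fibroblast markers Vim at 4720 to 5250 CPM and Thy1 at 421 to 520 CPM, while Pdgfra was at 1.73 to 4.03 CPM.

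With ESA, 1489 genes were higher and 1724 lower than with vehicle, out of 16194 tested, which is 9.19% and 10.6% of them and 19.8% together. A gene is called here, and said to have risen or fallen, at a Benjamini-Hochberg adjusted p under 0.05 in edgeR's quasi-likelihood test with the replicate number as a block. The 243 genes that rose by more than 1 log2 unit included the heme oxygenase gene Hmox1 and the sulfiredoxin gene Srxn1. The 316 that fell by more than 1 included the pentraxin gene Ptx3 and the BMP ligand gene Bmp4. Most called changes were smaller, with a median absolute log2 fold change of 0.53. The sign was the same in all 3 pairs for 3179 of the 3213 called genes (98.9%). The test was blocked on these same pairs, so this share follows in part from the selection and is no separate support. The median log2 fold change over all genes tested was -0.02. The ESA and vehicle libraries did not overlap for 4440 genes tested (27.4%), 2079 higher with ESA (12.8%) and 2361 lower (14.6%). Lack of overlap, given below for single genes, is therefore common and only describes the libraries. The count depended on the pairing and on replicate 2, with 23 genes called without the replicate block and 801 (404 higher and 397 lower) without replicate 2.

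**Figure D1:**
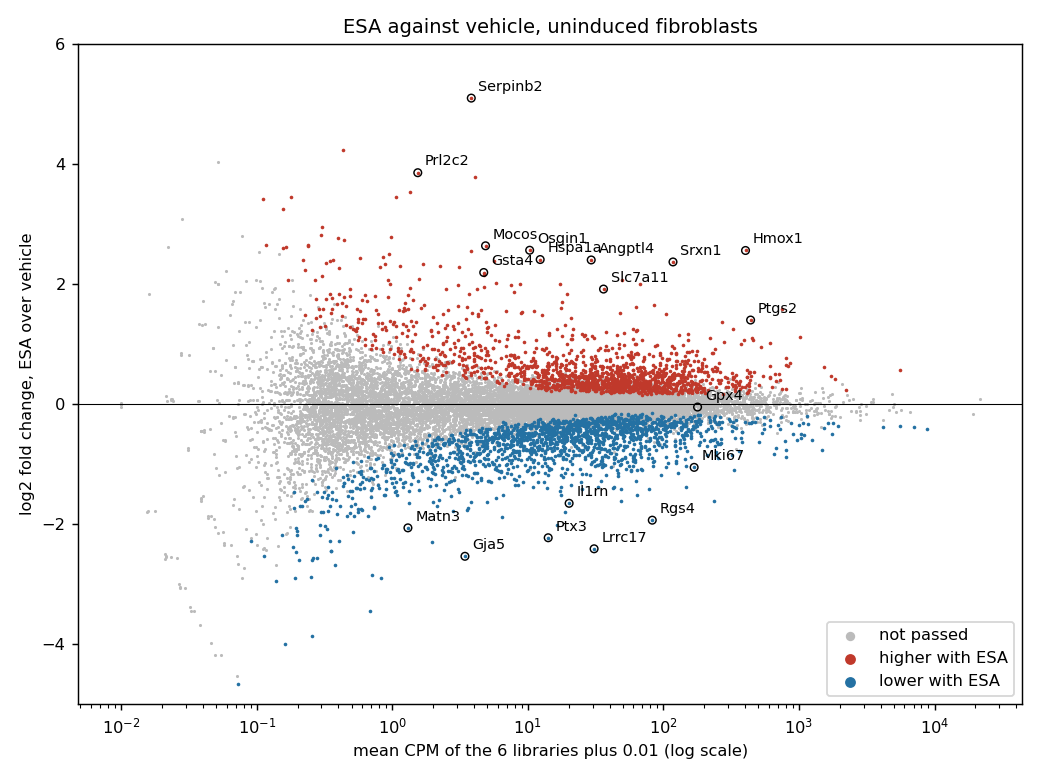
Log2 fold change of ESA over vehicle (vertical axis) against the mean CPM of the 6 libraries plus 0.01 (horizontal axis, log scale) for the 16194 genes tested in uninduced fibroblasts; each dot is a gene. Red dots are the 1489 genes that rose and blue dots the 1724 that fell, and both clouds lie on either side of grey dots that did not pass; Gpx4 sits near 0.

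Serpinb2, which encodes plasminogen activator inhibitor type 2 (ENSMUSG00000062345, chromosome 1, 107511423 to 107535478, plus strand on GRCm38), had the highest log2 fold change of the named genes. It was at 0.234, 0.0661 and 0.241 CPM with vehicle and 1.46, 19 and 1.87 CPM with ESA in replicates 1, 2 and 3, or 5.10 ± 0.66 log2 units (adjusted p = 3.82e-06). Every ESA library was above every vehicle library, but ESA replicate 2 was far above the others. The log2 fold change was 2.82 without that pair, 5.76 without pair 1 and 6.14 without pair 3. The prolactin family genes Prl2c2 (3.85 ± 0.60) and Prl2c3 (3.79 ± 0.55) leaned on replicate 2 in the same way, at 2.79 and 2.31 without it and, for Prl2c3, 4.60 without replicate 1, and reads shared by these near-identical copies make their values uncertain. Mocos, the sulfurase that activates the molybdenum cofactor of aldehyde and xanthine oxidases, was more even across pairs. It went from 1.45, 0.926 and 1.62 CPM to 6.57, 12.2 and 6.44 CPM, which is 2.64 ± 0.23 log2 units (adjusted p = 2.97e-08). Of the 9 genes tested that make or use this cofactor 4 rose, with Mocs1, its first synthesis enzyme, at 0.56 and the aldehyde oxidase gene Aox1 at 0.63. Mocs1 was at 0.42 without replicate 2 (adjusted p = 0.071).

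Angptl4, a secreted inhibitor of lipoprotein lipase and a target of lipid-sensing PPAR receptors (ENSMUSG00000002289, chromosome 17, 33773750 to 33781830, minus strand), was at 7.83, 9.59 and 8.53 CPM with vehicle and 23.2, 89.6 and 37.1 CPM with ESA. Its log2 fold change was 2.40 ± 0.42 (adjusted p = 1.61e-04), and the groups did not overlap. Fosb, an AP-1 subunit gene (ENSMUSG00000003545, chromosome 7, 19302696 to 19310051, minus strand), went from 2.06, 1.72 and 1.65 CPM to 7.98, 11.9 and 8.34 CPM. This was 2.38 ± 0.33 log2 units, and here too the groups did not overlap and ESA replicate 2 was highest. The others among the 15 highest were Osgin1, an oxidative stress-induced growth inhibitor (2.56), Hmox1 (2.56), Vmn2r79 (2.55), Hspa1a (2.41), Srxn1 (2.37), the guanine nucleotide exchange factor gene Ngef (2.34), the adhesion molecule gene Esam (2.29), Fam110c (2.28) and the glutathione transferase gene Gsta4 (2.19). Vmn2r79 is annotated as a vomeronasal receptor gene of a large family, and reads shared with near-identical members make its value uncertain. Without replicate 2, Hmox1 was at 1.88 and Osgin1 at 1.94, both still called. At that setting the test was missed by Hspa1a (1.78, adjusted p = 0.0513) and Esam (1.65, adjusted p = 0.064).

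Gja5, which encodes the gap junction protein connexin 40 (ENSMUSG00000057123, chromosome 3, 96904693 to 97077416, plus strand), had the lowest log2 fold change of the named genes. It was at 8.67, 4.07 and 4.47 CPM with vehicle and 2.02, 0.256 and 1.04 CPM with ESA, -2.54 ± 0.34 log2 units (adjusted p = 5.52e-06). Lrrc17, a secreted leucine-rich repeat protein gene (ENSMUSG00000039883, chromosome 5, 21543559 to 21575904, plus strand), fell from 30.4, 73.9 and 52.3 CPM to 9.67, 5.09 and 13.2 CPM, -2.41 ± 0.33 log2 units. In both genes all ESA libraries were below all vehicle libraries and ESA replicate 2 was lowest. Ptx3, a soluble pattern recognition protein that also organizes hyaluronan-rich matrix (ENSMUSG00000027832, chromosome 3, 66219910 to 66225805, plus strand), was at 15.6, 26.5 and 27.2 CPM with vehicle and 5.63, 2.16 and 7.51 CPM with ESA (-2.23 ± 0.28). Rgs4, an inhibitor of G protein signalling (ENSMUSG00000038530, chromosome 1, 169741477 to 169747642, minus strand), stood at 129, 129 and 129 CPM in the vehicle libraries, which hardly differed, and at 56.7, 14.6 and 38.9 CPM in the ESA libraries (-1.94 ± 0.36). Il1rn, the interleukin 1 receptor antagonist (ENSMUSG00000026981, chromosome 2, 24336853 to 24351494, plus strand), fell from 30.6, 28.8 and 30.1 CPM to 18.2, 4.43 and 8.66 CPM (-1.65 ± 0.30), again lowest in replicate 2. Among the 15 lowest were also Zbtb8b (-2.30), the cartilage matrix gene Matn3 (-2.06), Palmd (-2.02), Megf6 (-1.89), Rtl3 (-1.80), the potassium-dependent sodium-calcium exchanger gene Slc24a3 (-1.77) and Gprin3 (-1.77). The remaining genes were Tbxa2r, the thromboxane A2 receptor (-1.73), the G protein-coupled estrogen receptor gene Gper1 (-1.70) and Clmn (-1.63). With replicate 2 left out the test was missed by Matn3 (-1.92, adjusted p = 0.071), Gprin3 (-1.20, adjusted p = 0.0532) and Gper1 (-1.19, adjusted p = 0.12). Without replicate 1, Gprin3 was at -2.36 and Gper1 at -2.37.

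**Figure D2:**
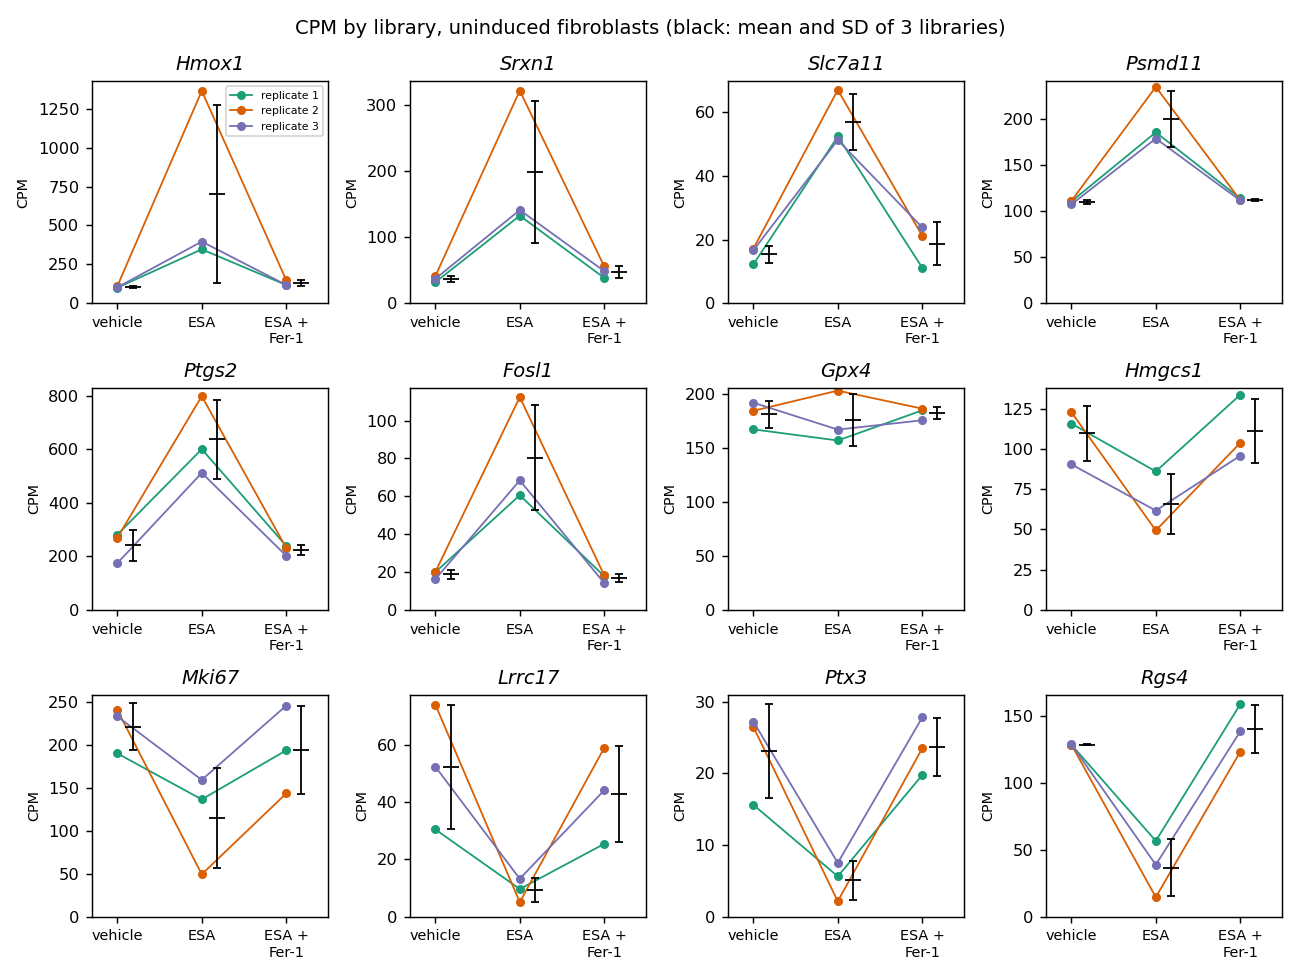
CPM (vertical axes, from 0) of 12 genes in the vehicle, ESA and ESA plus Fer-1 libraries of uninduced fibroblasts; each coloured line joins the libraries of 1 replicate number and black bars give the mean and SD of 3 libraries. In Hmox1, Srxn1, Fosl1 and Rgs4 every ESA library lies outside the range of the vehicle libraries and replicate 2 lies farthest, while in Gpx4 the ESA and vehicle libraries overlap.

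Genes of the antioxidant and glutathione programme that NRF2 controls rose in each of 5 lists of its targets, and no member of these lists fell. In the glutathione list 7 of 8 rose, against 9.19% of all genes tested, with a median log2 fold change of 0.75. Gclm, the modifier subunit of the enzyme that starts glutathione synthesis, went from 28.7, 34.4 and 28.1 CPM to 77.5, 131 and 76.2 CPM (1.62 ± 0.22, adjusted p = 8.99e-06). The catalytic subunit gene Gclc (0.52), the synthetase gene Gss (0.48), the reductase gene Gsr (0.90) and the exporter genes Abcc1 (0.59) and Abcc4 (1.48) also rose. G6pdx, which encodes glucose-6-phosphate dehydrogenase, the entry to the NADPH-forming pentose phosphate pathway, was at 0.02 ± 0.09 (adjusted p = 0.9). Once replicate 2 was removed the test was missed by Gclc (0.42, adjusted p = 0.064), Gss (0.27, adjusted p = 0.27) and Abcc1 (0.38, adjusted p = 0.11).

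In the thioredoxin list 4 of 5 genes rose. Srxn1, which reactivates overoxidized peroxiredoxins (ENSMUSG00000032802, chromosome 2, 152105516 to 152111376, plus strand), was at 31.7, 40.9 and 36.9 CPM with vehicle and 133, 322 and 141 CPM with ESA, 2.37 ± 0.24 log2 units (adjusted p = 1.71e-07). Txnrd1, the cytosolic thioredoxin reductase, went from 234, 276 and 230.5 CPM to 389, 792 and 436 CPM (1.07 ± 0.17), without overlap between the groups. The peroxide-reducing peroxiredoxin genes Prdx1 (0.63) and Prdx6 (0.36) rose as well, and the thioredoxin gene Txn1 was at 0.23 ± 0.09 (adjusted p = 0.081). Of the heme and iron list 4 of 5 rose. Hmox1, which opens the heme ring and frees its iron (ENSMUSG00000005413, chromosome 8, 75093621 to 75100589, plus strand), was at 99.4, 109 and 102 CPM with vehicle and 346, 1366 and 396 CPM with ESA. Blvrb, a biliverdin reductase gene, went from 12.3, 8.56 and 12.8 CPM to 24.5, 43.1 and 23.9 CPM (1.43 ± 0.21), and the heme transporter gene Slc48a1 rose by 0.81. In Srxn1, Txnrd1, Hmox1, Blvrb and Slc48a1 ESA replicate 2 was the highest library and the groups did not overlap. Fth1, the heavy chain of the iron store ferritin, rose by 0.53, and the light chain gene Ftl1 was at 0.27 ± 0.12 (adjusted p = 0.12). Without replicate 2 the test was missed by Prdx1 (0.40, adjusted p = 0.3), Prdx6 (0.17, adjusted p = 0.33) and Fth1 (0.34, adjusted p = 0.066).

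Of 12 conjugation and reduction genes 5 rose, among them Gsta4 from 0.797, 2.65 and 1.48 CPM to 5.63, 13.5 and 4.21 CPM (2.19 ± 0.27) and the carbonyl reductase gene Cbr3 from 6.33, 5.06 and 5.29 CPM to 13.1, 24 and 12.4 CPM (1.55 ± 0.18). Nqo1, the quinone reductase often taken as the marker of NRF2 activity, rose by 1.13 ± 0.20. The NADPH and other list had 7 of 12 members up, including the autophagy receptor gene Sqstm1 (353, 366 and 372 CPM with vehicle, 842, 1690 and 862 CPM with ESA, 1.58 ± 0.18), the pentose phosphate gene Pgd (0.91), the formylglutathione hydrolase gene Esd (1.07) and the small MAF gene Mafg (0.65). NRF2's own gene Nfe2l2 rose by 0.47 and Keap1 by 0.25, and the repressor gene Bach1 was at -0.12 ± 0.10 (adjusted p = 0.41). Neither regulator passed without replicate 2: Nfe2l2 (0.38, adjusted p = 0.079) and Keap1 (0.13, adjusted p = 0.55). Keap1 was also lost without replicate 3 (0.24, adjusted p = 0.14).

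**Figure D3:**
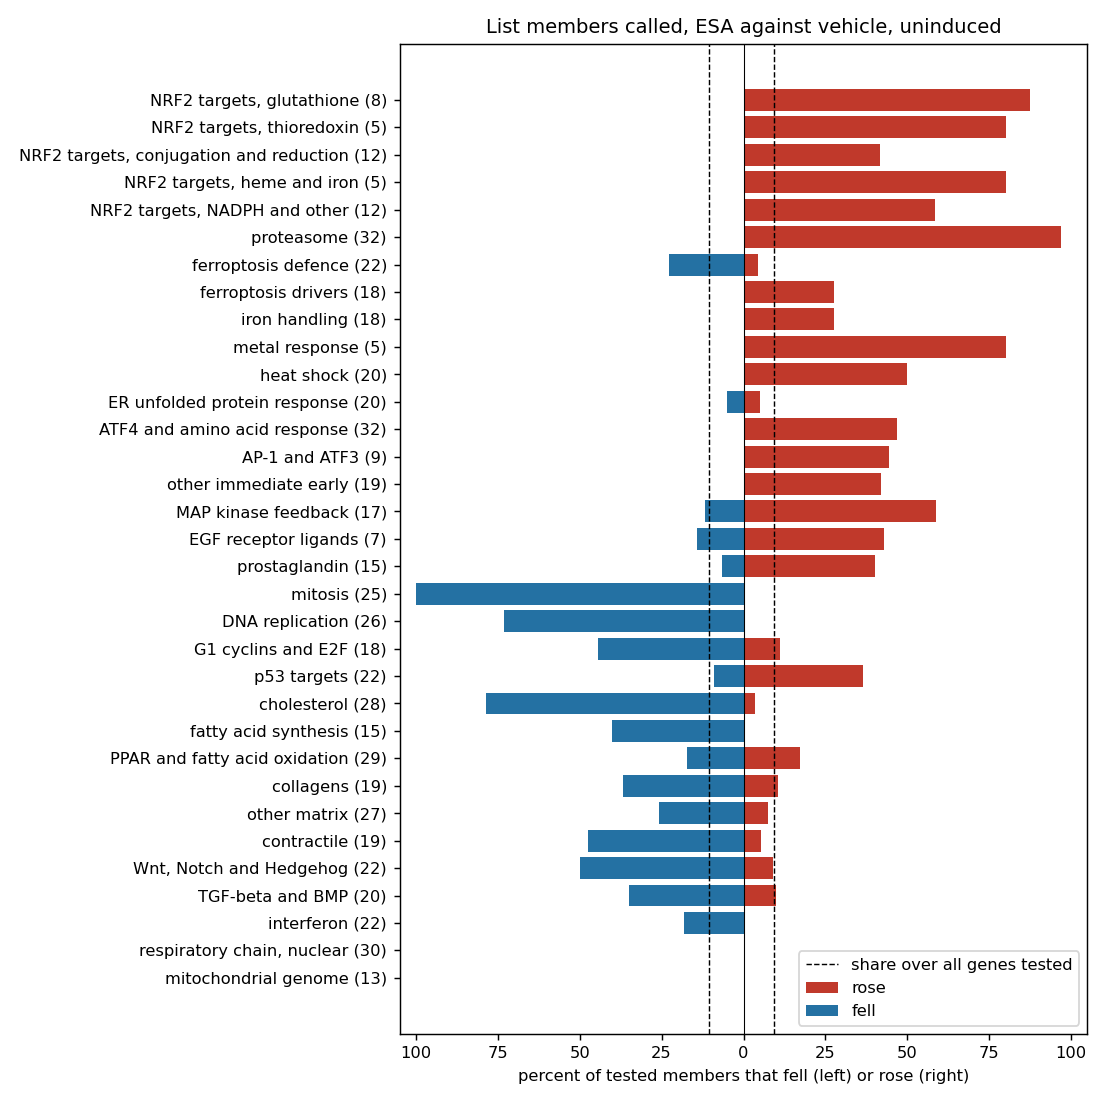
Percent of the tested members of each gene list (number in brackets) that rose (red, right) or fell (blue, left) with ESA in uninduced fibroblasts; dashed lines mark the shares over all 16194 genes, 9.19% rose and 10.6% fell. The bars for proteasome genes (31 of 32 rose) and mitosis genes (25 of 25 fell) reach or nearly reach the end of the axis, and the nuclear respiratory chain has no bar.

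Promoters of NRF2 targets are shown because they hold the sequence that NRF2 and small MAF proteins bind, the antioxidant response element. Its core was searched as TGACNNNGC on both strands of windows from 250 bases before to 50 bases after each RefSeq gene start on GRCm38.p6. A match was present in 34.0% of 53 windows of the NRF2 target genes and in 14.0% of 14179 windows of tested genes. The 4 genes with the highest fold changes among those with a match are printed 5′ to 3′ on the gene's strand, with the matched core, in either orientation, in capitals. Srxn1 is chr2:152105274-152105573 (plus strand), Gclm chr3:122245307-122245606 (plus strand), Abcc4 chr14:118706170-118706469 (minus strand, 1 of 2 windows with a match) and Txnrd1 chr10:82858956-82859255 (plus strand).
Srxn1: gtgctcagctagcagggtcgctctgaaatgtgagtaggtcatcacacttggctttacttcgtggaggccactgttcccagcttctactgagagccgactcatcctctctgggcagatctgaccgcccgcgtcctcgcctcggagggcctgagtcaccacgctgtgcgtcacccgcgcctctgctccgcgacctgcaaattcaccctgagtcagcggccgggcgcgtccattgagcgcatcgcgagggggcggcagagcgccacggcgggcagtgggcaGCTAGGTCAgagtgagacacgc
Gclm: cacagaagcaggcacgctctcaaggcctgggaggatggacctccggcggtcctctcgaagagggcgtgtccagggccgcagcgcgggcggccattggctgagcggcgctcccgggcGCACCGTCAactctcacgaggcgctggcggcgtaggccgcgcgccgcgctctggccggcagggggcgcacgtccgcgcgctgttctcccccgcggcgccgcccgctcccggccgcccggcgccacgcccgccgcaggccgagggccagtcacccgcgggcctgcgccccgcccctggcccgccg
Abcc4: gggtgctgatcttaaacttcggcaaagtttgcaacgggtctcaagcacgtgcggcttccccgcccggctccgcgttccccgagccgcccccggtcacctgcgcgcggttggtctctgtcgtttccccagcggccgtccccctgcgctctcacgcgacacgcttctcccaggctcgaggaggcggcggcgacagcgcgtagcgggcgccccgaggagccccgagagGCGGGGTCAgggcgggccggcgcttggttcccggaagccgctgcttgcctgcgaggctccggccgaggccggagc
Txnrd1: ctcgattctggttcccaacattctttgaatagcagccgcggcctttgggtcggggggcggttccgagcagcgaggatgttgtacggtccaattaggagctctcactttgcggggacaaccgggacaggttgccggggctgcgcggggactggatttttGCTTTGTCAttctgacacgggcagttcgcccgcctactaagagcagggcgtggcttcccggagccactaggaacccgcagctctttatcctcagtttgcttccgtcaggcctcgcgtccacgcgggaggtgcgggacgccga
The matched cores begin 29 bases after the start in Srxn1 and 134, 25 and 92 bases before it in Gclm, Abcc4 and Txnrd1. A match of letters is a description and not evidence of binding, and windows of 38 of the 47 listed genes were available.

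Nearly every gene of the proteasome, the protease that degrades ubiquitin-tagged and oxidized proteins, was higher with ESA. Of 32 subunit and assembly genes 31 rose, the median log2 fold change was 0.56, and by pair it was 0.48, 0.75 and 0.46. Psmd11, a lid subunit of the regulatory particle, went from 110.4, 111 and 107 CPM to 186, 235 and 179 CPM (0.86 ± 0.09, adjusted p = 2.52e-07). The core particle gene Psma5 went from 86.3, 90.7 and 85.2 CPM to 139, 198 and 139 CPM (0.85 ± 0.10), and the ATPase gene Psmc2 from 149, 151 and 145 CPM to 228, 291 and 230 CPM (0.75 ± 0.08). The vehicle libraries hardly differed in these genes, all ESA libraries were above them, and ESA replicate 2 was highest. The assembly chaperone gene Pomp rose by 0.44, and the smallest changes were those of the catalytic subunit gene Psmb5 (0.31 ± 0.11) and of Psmd8 (0.22 ± 0.09, adjusted p = 0.077), which was not called. Without replicate 2, 25 of the 32 were called, and Psmb5 was at 0.14 (adjusted p = 0.63). Psmb5 was also lost without replicate 3 (0.38, adjusted p = 0.062). The antioxidant core was found in 14.3% of 28 windows of proteasome genes, close to the 14.0% of tested genes.

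**Figure D4:**
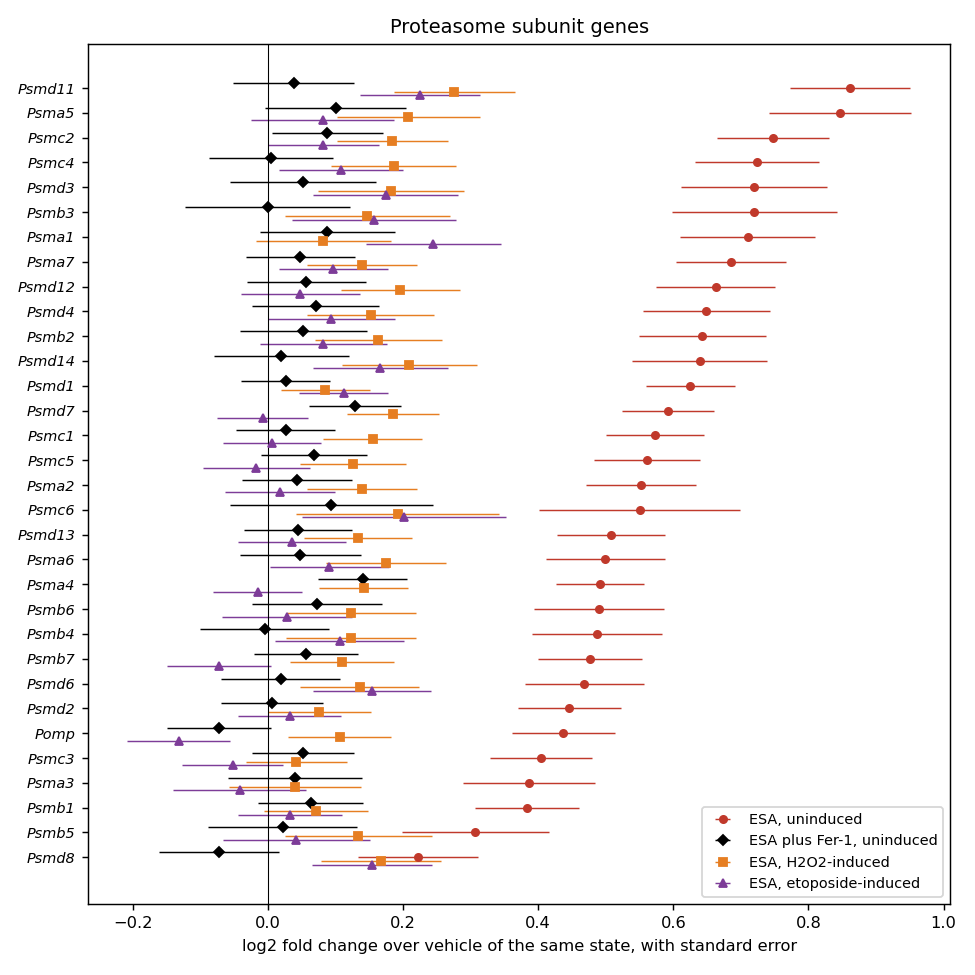
Log2 fold change over the vehicle of the same state (horizontal axis, bars give the standard error) of 32 proteasome genes, for ESA in uninduced cells (red circles), ESA plus Fer-1 in uninduced cells (black diamonds), ESA in H2O2-induced cells (orange squares) and ESA in etoposide-induced cells (purple triangles). Red circles run from 0.22 to 0.86, and all other marks lie between -0.13 and 0.28.

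Among 24 autophagy and lysosome genes 7 rose and none fell, against 9.19% and 10.6% of all genes tested. The median log2 fold change of the list was 0.077, and by pair it was 0.004, 0.232 and 0.009. Besides Sqstm1 the 7 that rose included Gabarapl1, which builds autophagosome membranes (88.8, 84.5 and 90.5 CPM with vehicle and 134, 199 and 142 CPM with ESA, 0.83 ± 0.09, adjusted p = 2.59e-07). The transcription factor gene Mitf rose by 0.48 at a low level. It was not called without replicate 2 (0.40, adjusted p = 0.31) or without replicate 1 (0.44, adjusted p = 0.17).

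Most genes on the ferroptosis defence and driver lists were not called, as was true of most genes tested. Gpx4 was at 167, 184 and 192 CPM with vehicle and 157, 203 and 167 CPM with ESA, with overlapping groups (-0.05 ± 0.10, adjusted p = 0.8). Aifm2, the quinone reductase FSP1 that regenerates ubiquinol in membranes (0.19 ± 0.10), and Acsl4, which loads polyunsaturated fatty acids into lipids (0.04 ± 0.17), were not called either. Of 22 genes listed under defence 1 rose and 5 fell, against 9.19% and 10.6% of all genes tested. The riser was Slc3a2 (0.57), the partner chain of the cystine importer. Slc7a11 itself, listed with glutathione genes, went from 12.2, 17.1 and 16.6 CPM to 52.4, 67.1 and 51.3 CPM (1.92 ± 0.29, adjusted p = 3.13e-05), with no overlap and similar values in the 3 ESA libraries. The 5 that fell, Mboat1, Mboat2, Dhcr7, Sc5d and Scd1, act in phospholipid remodelling, sterol synthesis or fatty acid desaturation, and ranged from -0.49 to -0.26. Being on this list does not mean that each member protects from ferroptosis, so the falls are not read as weaker defence. Without replicate 2 none of the 5 was called, with Mboat1 at -0.26 and Scd1 at -0.14 (adjusted p = 0.43 and 0.5), and Scd1 was not called without replicate 3 (adjusted p = 0.084).

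Of 18 driver genes 5 rose and none fell, against 9.19% and 10.6% of all genes tested. Those that rose included Cyb5r1, a reductase that feeds electrons to oxygen at membranes (0.60), and Sat1, a polyamine-acetylating enzyme (0.52). Ptgs2, which encodes cyclooxygenase 2 and is widely used as a ferroptosis marker, went from 281, 269.5 and 175 CPM to 601, 799 and 512 CPM (1.40 ± 0.28, adjusted p = 5.91e-04), and its groups did not overlap. Tfrc, the transferrin receptor that imports iron, went from 79.8, 97.3 and 68.9 CPM to 139, 156 and 144 CPM (0.84 ± 0.18), with the 3 ESA libraries within a narrow range. The glutathione-degrading enzyme gene Chac1 was at 0.43 ± 0.16 and missed the threshold (adjusted p = 0.0545), but was called by DESeq2 (0.045), without a filter (0.0048), with the compared libraries only (0.0178) and with the uninduced libraries only (0.00124). Among 18 iron-handling genes 5 rose, with the mitochondrial iron importer gene Slc25a37 at 0.82 and the iron exporter gene Slc40a1 at 0.82. The metal-binding metallothionein genes Mt1 and Mt2 rose as well. Mt2 was at 3.47, 2.81 and 2.44 CPM with vehicle and 7.51, 20.2 and 8.27 CPM with ESA (1.99 ± 0.26), Mt1 rose by 1.09 and the zinc exporter gene Slc30a1 by 0.63, so that 4 of 5 metal-response genes were called. Without replicate 2 the test was missed by Sat1 (0.41, adjusted p = 0.059) and Slc40a1 (0.58, adjusted p = 0.22).

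Many genes of the amino acid stress response rose, and few of the endoplasmic reticulum stress response changed. Of 32 genes of the amino acid response driven by the transcription factor ATF4, 15 rose and none fell, with a median of 0.31. Atf3 went from 2.77, 3.64 and 3.61 CPM to 8.68, 17.8 and 10.8 CPM (1.88 ± 0.31, adjusted p = 9.56e-05). The stress cytokine gene Gdf15 went from 11.5, 18.6 and 15.9 CPM to 26.2, 46.9 and 31.9 CPM (1.17 ± 0.13) and Ddit3, which encodes CHOP, rose by 0.65. In Atf3 and Gdf15 the groups did not overlap, and replicate 2 was highest. Atf4 rose by 0.29 and the asparagine synthetase gene Asns by 0.35. Of 20 genes of the unfolded protein response of the endoplasmic reticulum 1 rose, Dnajb9 (0.63), and 1 fell, Calr (-0.20), which is below the background shares. The calls of Asns, Dnajb9 and Calr were lost without replicate 1 (adjusted p = 0.065, 0.12 and 0.11), and those of Dnajb9 and Calr without replicate 3 (adjusted p = 0.094 and 0.0522). Without replicate 2, 6 genes of the ATF4 list were called. The values without replicate 2 were Atf4 (0.26, adjusted p = 0.089), Asns (0.29, adjusted p = 0.19), Dnajb9 (0.51, adjusted p = 0.33) and Calr (-0.18, adjusted p = 0.21).

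Among 20 heat shock genes 10 rose and none fell. Hspa1a, an inducible HSP70 gene (ENSMUSG00000091971, chromosome 17, 34969190 to 34972156, minus strand), was at 3.98, 3.47 and 3.85 CPM with vehicle and 9.95, 35.7 and 16.9 CPM with ESA (2.41 ± 0.46, adjusted p = 4.02e-04). Its near-identical neighbour Hspa1b rose by 1.13 ± 0.32, and reads shared by the pair make both values uncertain. Hspb8, a small heat shock protein of chaperone-assisted autophagy, went from 77.5, 81.1 and 77.8 CPM to 116, 165 and 121 CPM (0.76 ± 0.09), and the mitochondrial chaperonin gene Hspd1 rose by 0.51. Hsp90aa1, the inducible HSP90 gene, was at 0.16 ± 0.12 (adjusted p = 0.41). With replicate 2 left out 2 of the 20 were called, and Hspa1a and Hspa1b were at 1.78 and 0.71 (adjusted p = 0.0513 and 0.31). Hspa1b was not called without replicate 3 either (adjusted p = 0.056). The Hspa1a promoter is shown because it holds a match to the heat shock element, which HSF1 binds. Hspa1a is the highest of the list and so was picked after values were known. The element was searched as GAANNTTC, which reads the same on both strands. The window is chr17:34972107-34972406 (minus strand, GRCm38.p6), and the match, in capitals, begins 104 bases before the start.
Hspa1a: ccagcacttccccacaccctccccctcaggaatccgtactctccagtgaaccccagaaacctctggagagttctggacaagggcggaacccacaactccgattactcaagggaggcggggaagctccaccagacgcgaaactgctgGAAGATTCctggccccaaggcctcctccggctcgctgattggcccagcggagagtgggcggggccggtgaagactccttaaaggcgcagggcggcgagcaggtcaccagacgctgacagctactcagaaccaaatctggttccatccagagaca
A match was present in 52.4% of 21 windows of heat shock genes and 5.68% of the 14179 windows of tested genes, and is not evidence of binding.

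Immediate early genes, which growth factors and stress switch on within minutes, were higher in part, and so were genes for ligands of the epidermal growth factor receptor (EGFR) and for proteins that dampen the MAP kinases below it. Of 9 AP-1 and ATF genes 4 rose, among them Fosl1, which went from 20, 20.1 and 16.3 CPM to 60.6, 112 and 68.4 CPM (2.07 ± 0.25, adjusted p = 1.90e-06), and Jun (0.82). Fos, whose mRNA is short-lived, was at 0.02 ± 0.28 (adjusted p = 0.97). Of 19 other immediate early genes 8 rose. Egr2 went from 22.7, 19.7 and 25.5 CPM to 41.7, 58.1 and 57.5 CPM (1.20 ± 0.14), without overlap, and Egr3 (1.47), Arc (1.20), Nr4a1 (0.90) and Myc (0.84) rose, while Egr1 at 0.28 ± 0.23 was not called (adjusted p = 0.44). The sequence TGANTCA that AP-1 binds was searched on both strands in the promoter windows described above. It was present in 6 of 10 windows of the 15 genes with the highest fold changes, of which 9 have a window. The share was 5.48% of windows of tested genes. These 15 genes were picked by their values. The antioxidant core was present in 1 of the same 10 windows, against 14.0% of windows of tested genes. TGANTCA was in 0 of 11 windows of the AP-1 and ATF list. The AP-1 and antioxidant searches overlap, since a run of letters can match both. A match is not evidence of binding. Without replicate 2 the test was missed by Jun (0.61, adjusted p = 0.061) and Nr4a1 (0.90, adjusted p = 0.0503).

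Of 7 tested EGFR family ligand genes 3 rose and 1 fell. Hbegf went from 210.4, 158 and 185 CPM to 352, 393 and 388 CPM (1.04 ± 0.18, adjusted p = 1.61e-04) and Ereg from 37, 17.1 and 23.1 CPM to 74.3, 68.4 and 67.9 CPM (1.51 ± 0.32). Areg was almost absent with vehicle, at 0.0469, 0.232 and 0.206 CPM, and at 1.08, 3.48 and 1.26 CPM with ESA (3.45 ± 0.56). All 3 genes had every ESA library above every vehicle library. Nrg1, which encodes a ligand of other receptors of the family, was the one that fell, by 0.89. Of 17 MAP kinase feedback genes 10 rose and 2 fell. Dusp4, a nuclear phosphatase of ERK, went from 44.1, 54.8 and 53.6 CPM to 79.3, 252 and 140.1 CPM (1.5 ± 0.18, adjusted p = 2.06e-06), Dusp5 from 42.2, 35.4 and 37.1 CPM to 72.1, 122 and 76.2 CPM (1.23 ± 0.23) and the cytoplasmic ERK phosphatase gene Dusp6 from 29.6, 26.8 and 28.9 CPM to 44.8, 63.9 and 54.7 CPM (0.93 ± 0.15). The phosphatase gene Dusp2 rose by 1.94, the EGFR inhibitor gene Errfi1 by 0.88 and the Sprouty gene Spry2 by 0.87, whereas Spry1 changed by -1.03 and Dusp8 by -0.29. When replicate 2 was left out 6 feedback genes rose and none fell, and the calls lost among the named genes were those of Ereg (1.27, adjusted p = 0.0518), Nrg1 (-0.54, adjusted p = 0.23), Dusp2 (1.86, adjusted p = 0.079), Spry1 (-0.79, adjusted p = 0.22) and Dusp8 (-0.20, adjusted p = 0.25).

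Prostaglandin genes other than Ptgs2 also moved. Of 15 tested 6 rose and 1 fell. Abcc4, an exporter of both glutathione conjugates and prostaglandins, went from 5.02, 7.51 and 6.53 CPM to 13.1, 32.8 and 10.9 CPM (1.48 ± 0.24, adjusted p = 6.03e-05). The constitutive cyclooxygenase gene Ptgs1 rose by 0.71, the prostaglandin E synthase gene Ptges by 0.81 and the receptor gene Ptger4 by 0.73, while Ptgfr, the receptor for prostaglandin F2 alpha, was at -1.55 with levels of at most 1.72 CPM in either group. In Ptges the ESA libraries were at 4.69, 19.4 and 5.57 CPM, so that replicate 2 alone stood clear of the vehicle libraries, which lay at 4.03, 6.42 and 4.61 CPM. None of the last 4 was called without replicate 2, with Ptgs1 (0.41, adjusted p = 0.23), Ptges (0.25, adjusted p = 0.7), Ptger4 (0.67, adjusted p = 0.2) and Ptgfr (-0.95, adjusted p = 0.52). Ptger4 and Ptgfr were also lost without replicate 3 (adjusted p = 0.096 and 0.24), and Ptgfr was at -2.25 without replicate 1.

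Of 21 IL-6 family and related cytokine genes 8 rose and 8 fell. Those that rose were mostly ligands and included Lif (8.53, 9.36 and 10.1 CPM with vehicle and 12.3, 34.8 and 22.8 CPM with ESA, 1.24 ± 0.20), Il11 (1.36) and Vegfa, the vascular growth factor gene (285, 270.2 and 297 CPM with vehicle and 503, 726 and 609 CPM with ESA, 1.10 ± 0.21). Those that fell included the shared receptor chain Il6st (269, 328 and 306 CPM with vehicle and 205, 170.3 and 210.2 CPM with ESA, -0.62 ± 0.09), the receptor genes Osmr (-0.68) and Lifr (-0.59), the signal transducer gene Stat3 (-0.46), its inhibitor Socs3 (-0.71) and the ligand gene Tgfb2 (-0.87). Il6 was at -0.28 ± 0.25 (adjusted p = 0.51). Among growth factor genes Fgf2 rose by 0.74, while the receptor genes Fgfr2 (-1.02) and Pdgfrb (-0.56) fell. The chemokine gene Ccl2 rose by 0.93 and Cxcl12 fell by 0.76, the 2 called of 10 chemokine genes. This is near the 9.19% and 10.6% of all genes tested that rose and fell. Calls that depended on replicate 2, with their values without it, were those of Il11 (0.81, adjusted p = 0.25), Osmr (-0.37, adjusted p = 0.17), Lifr (-0.47, adjusted p = 0.22), Fgfr2 (-0.88, adjusted p = 0.059), Pdgfrb (-0.48, adjusted p = 0.12) and Cxcl12 (-0.62, adjusted p = 0.13). Lifr was also lost without replicate 3 (adjusted p = 0.15).

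Cell division genes were lower with ESA. All 25 mitosis genes fell, against 10.6% of all genes, with a median log2 fold change of -0.89 and pair medians of -0.75, -1.10 and -0.68. Cdk1, the kinase that starts mitosis, went from 124, 141 and 120.5 CPM to 79.1, 81.8 and 77.1 CPM (-0.69 ± 0.15, adjusted p = 9.64e-04), and Tpx2, a spindle assembly factor, from 165, 183 and 167 CPM to 112, 107 and 122 CPM (-0.59 ± 0.11). In both genes the 3 ESA libraries were close together and below all vehicle libraries. The proliferation marker Mki67 differed more among ESA libraries, with 190.4, 241 and 234 CPM for vehicle and 137, 49.5 and 159.5 CPM for ESA (-1.05 ± 0.31), replicate 2 being far below the others, and the kinetochore motor gene Cenpe had the same pattern (-1.11). The spindle motor gene Kif11 went from 70.3, 76.3 and 68.6 CPM to 39.2, 23.9 and 40 CPM (-1.08 ± 0.24). Of 26 DNA replication genes 19 fell, including the thymidine kinase gene Tk1 (43.6, 48.8 and 43.8 CPM with vehicle and 24.9, 22.3 and 23.2 CPM with ESA, -0.95 ± 0.17) and the ribonucleotide reductase gene Rrm2 (-0.70), while the helicase subunit gene Mcm2 was at -0.16 ± 0.12 (adjusted p = 0.4). Without replicate 2, 11 mitosis genes and 6 replication genes were called. Named genes that lost their call at that setting were Mki67 (-0.51, adjusted p = 0.43), Cenpe (-0.50, adjusted p = 0.23), Kif11 (-0.81, adjusted p = 0.091) and Rrm2 (-0.64, adjusted p = 0.1).

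The Kif11 promoter is shown because it holds a match to the cell cycle genes homology region, through which the DREAM complex represses mitotic genes outside division. Kif11 also has the lowest fold change among mitosis genes with a match. The region was searched as TTTGAA on both strands. The window is chr19:37376132-37376431 (plus strand, GRCm38.p6), and the match, in capitals and on the opposite strand, begins 19 bases before the start.
Kif11: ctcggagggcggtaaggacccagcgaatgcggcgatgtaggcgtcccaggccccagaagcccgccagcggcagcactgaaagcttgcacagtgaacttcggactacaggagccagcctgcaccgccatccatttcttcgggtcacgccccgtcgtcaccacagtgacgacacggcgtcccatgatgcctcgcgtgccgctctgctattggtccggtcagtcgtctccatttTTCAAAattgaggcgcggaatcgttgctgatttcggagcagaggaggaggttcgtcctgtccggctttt
The letters were present in 76.2% of 21 windows of mitosis genes and in 12.2% of the 14179 windows of tested genes. A match of letters is not evidence of binding here either.

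Regulators of the G1 phase did not move in a single direction. Of 18 G1 cyclin and E2F genes 2 rose and 8 fell, near the background for those that rose. Ccnd1, cyclin D1, went from 187, 91.4 and 111 CPM to 249, 224 and 178 CPM (0.81 ± 0.14, adjusted p = 1.96e-04); the groups overlapped, although each ESA library was above its own vehicle library. The inhibitor gene Cdkn1b fell by 0.68, and Cdkn2a, which encodes p16 and ARF, was at 0.01 ± 0.14 (adjusted p = 0.97). Of 22 p53 targets 8 rose and 2 fell, near the background for those that fell. Cdkn1a, the p21 inhibitor of cyclin-dependent kinases, went from 350.1, 362 and 394 CPM to 424, 633 and 486 CPM (0.47 ± 0.09), Mdm2 rose by 0.44, Gadd45a by 0.67, and the death receptor gene Fas fell by 1.14. Apart from Ccnd1 the calls named here depended on replicate 2, with values without it for Cdkn1b (-0.45, adjusted p = 0.28), Cdkn1a (0.29, adjusted p = 0.063), Mdm2 (0.36, adjusted p = 0.097), Gadd45a (0.59, adjusted p = 0.056) and Fas (-0.80, adjusted p = 0.13).

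Sterol synthesis genes were lower with ESA. Of 28 cholesterol genes 22 fell and 1 rose, with a median log2 fold change of -0.48. Hmgcs1, an early enzyme of the pathway, went from 116, 123 and 90.5 CPM to 86.1, 49.4 and 61.7 CPM (-0.77 ± 0.14, adjusted p = 3.01e-04). The squalene synthase gene Fdft1 went from 41.6, 51.9 and 38.2 CPM to 30.4, 27.9 and 24.6 CPM (-0.67 ± 0.10) and the sterol carrier gene Stard4 from 23.2, 24.2 and 19.5 CPM to 16.2, 11.1 and 11.3 CPM (-0.81 ± 0.14), all without overlap between groups. The sterol sensor gene Insig1 (-0.63) and the transcription factor gene Srebf2 (-0.41) also fell. The riser was Abca1, a cholesterol exporter, from 12.8, 8.43 and 20 CPM to 19.4, 15.4 and 29.2 CPM (0.67 ± 0.11); each ESA library exceeded its own vehicle library although the groups overlapped. Of 15 fatty acid synthesis genes 6 fell, led by the desaturase gene Fads2 (82.9, 111 and 76.2 CPM with vehicle and 61.5, 58.7 and 53.7 CPM with ESA, -0.62 ± 0.10) and including the elongase gene Elovl6 (-0.48), and Fasn was at 0.07 ± 0.12. Of 29 PPAR and fatty acid oxidation genes 5 rose and 5 fell. Beside Angptl4 the fatty acid transporter gene Cd36 rose (3.14, 0.959 and 2.44 CPM with vehicle and 5.77, 5.38 and 5.54 CPM with ESA, 1.52 ± 0.28). Without replicate 2, 10 cholesterol genes still fell. Named lipid genes that lost their call were Hmgcs1 (-0.49, adjusted p = 0.063), Insig1 (-0.54, adjusted p = 0.063), Srebf2 (-0.41, adjusted p = 0.084) and Elovl6 (-0.21, adjusted p = 0.43). Srebf2 was also lost without replicate 3 (adjusted p = 0.067).

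Of 22 Wnt, Notch and Hedgehog genes 11 fell and 2 rose, near the background for those that rose. Notch3 went from 45, 40.6 and 63.2 CPM to 30.8, 16.2 and 27.6 CPM (-1.02 ± 0.18, adjusted p = 2.29e-04), the Notch target gene Heyl from 2.48, 8.56 and 11.1 CPM to 1.55, 2.89 and 4.39 CPM (-1.27 ± 0.26), and Ptch1, the Hedgehog receptor and target, from 53.4, 29.2 and 43.4 CPM to 36, 19 and 26.9 CPM (-0.63 ± 0.10). Gli1, a transcription factor and target of the Hedgehog pathway, was at -1.61, and this value was -2.28 without replicate 1. In Heyl and Ptch1 the groups overlapped, and each ESA library was below its own vehicle library. Of 20 TGF-beta and BMP genes 7 fell and 2 rose, again near the background for those that rose, with a median log2 fold change of -0.01. Bmp4 went from 69.4, 59.2 and 85.7 CPM to 33.9, 8.53 and 33.3 CPM (-1.62 ± 0.29, adjusted p = 2.22e-04), the BMP target gene Id3 fell by 0.67, the BMP antagonist gene Noggin (Nog) fell by 1.33, and the antagonist gene Grem1 rose by 0.98. Without replicate 2 the test was missed by Gli1 (-1.02, adjusted p = 0.45), Id3 (-0.64, adjusted p = 0.056), Nog (-1.20, adjusted p = 0.23) and Grem1 (0.90, adjusted p = 0.059). The calls of Gli1 and Nog were also lost without replicate 3 (adjusted p = 0.16 and 0.1). Without replicate 2, 9 of the Wnt, Notch and Hedgehog genes and 1 of the TGF-beta and BMP genes fell.

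Matrix and contractile genes were lower in part. Of 19 collagen genes 7 fell and 2 rose, among them Col3a1, from 1034, 1340 and 1355 CPM to 741, 807 and 952 CPM (-0.57 ± 0.12, adjusted p = 9.15e-04), and Col1a1 (-0.39). Of 27 other matrix genes 7 fell and 2 rose, which, as for collagens, is near the background for those that rose. Fbln1, a fibulin of elastic fibres, went from 14.6, 20.3 and 16.1 CPM to 8.45, 13 and 10.1 CPM (-0.70 ± 0.13), and the small proteoglycan gene Ogn fell by 1.29. Of 21 proteases and inhibitors 7 rose and 4 fell. The proteoglycanase gene Adamts5 went from 304, 356 and 381 CPM to 158, 48.1 and 162 CPM (-1.61 ± 0.28), with ESA replicate 2 far below the others, and the metalloproteinase inhibitor gene Timp3 rose from 601, 546 and 812 CPM to 1141, 1504 and 1537 CPM (1.11 ± 0.16). The macrophage elastase gene Mmp12 (1.29) and Plaur, the urokinase receptor gene (0.87), were among those that rose. Of 19 contractile genes 9 fell and 1, the fibronectin receptor gene Itga5, rose (0.62). Acta2, smooth muscle actin, went from 9465, 9935 and 10730 CPM to 7265, 7185 and 8257 CPM (-0.41 ± 0.11), and the myosin light chain kinase gene Mylk fell by 1.03. Without replicate 2 no contractile gene fell and 1 collagen gene did. Of the named genes the test was then missed by Col1a1 (-0.38, adjusted p = 0.21), Ogn (-0.73, adjusted p = 0.32), Mmp12 (0.84, adjusted p = 0.056), Plaur (0.65, adjusted p = 0.082), Acta2 (-0.38, adjusted p = 0.12) and Mylk (-0.78, adjusted p = 0.1). Col1a1 was also lost without replicate 1 or replicate 3 (adjusted p = 0.14 and 0.093).

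Mlkl, the pore-forming executor of necroptosis, went from 13.5, 9.39 and 9.59 CPM to 28.9, 30.2 and 21.1 CPM (1.31 ± 0.12, adjusted p = 3.15e-08), with no overlap between groups, while the pro-apoptotic gene Bmf fell by 1.24. These were among 3 risers and 4 fallers of 24 cell death genes, which is near the background shares. Of 22 interferon genes 4 fell and none rose, against 10.6% and 9.19% of all genes tested, with Irf1 at -0.89. None of 30 nuclear genes of the respiratory chain was called, and their median log2 fold change was 0.02. None of the 13 protein-coding genes of the mitochondrial genome was called either, although their median was -0.68 in pair 2 against 0.01 and -0.11 in pairs 1 and 3.

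Markers of fibroblasts and of other cell types were checked, since RNA of a whole culture cannot tell fewer cells of a type from less RNA per cell. The fibroblast markers summed to 19300, 22700 and 22900 CPM with vehicle and 15700, 18400 and 19100 CPM with ESA, lower in each pair. Of 13, 4 fell, the collagen genes Col1a1, Col1a2 (-0.37) and Col3a1 and the receptor gene Pdgfrb, and none rose. The 8 neural markers summed to 789, 682 and 770 CPM with vehicle and 1030, 1160 and 1190 CPM with ESA, without overlap. Most of this sum was Nes, the intermediate filament nestin, which rose from 727, 571 and 662 CPM to 972, 1068 and 1113 CPM (0.69 ± 0.15), while Map2 fell by 1.30, 3 more tested members were not called and the neuronal marker Rbfox3 was at 0 in all 6 libraries. Endothelial markers summed to 33.5 to 50 CPM with vehicle and 36 to 57.6 CPM with ESA, mainly from Flt1, with Tek lower (-2.27) and Pecam1 at most 0.108 CPM. Epithelial markers summed to 23.5 to 34.1 CPM with vehicle and 21.8 to 38.3 CPM with ESA, mainly from Krt19, with Epcam at most 0.0366 CPM and no member called. Skeletal muscle markers summed to 42.2 to 73.2 CPM and 43.6 to 85.8 CPM, mainly from Des, which was not called. Adipocyte markers summed to 7.08 to 13.5 CPM and 5.2 to 7.77 CPM, nearly all from Fabp4 (-0.67). Of 8 macrophage markers 3 rose, Lyz2 (96, 34 and 63.8 CPM with vehicle and 134, 107 and 102 CPM with ESA), Cd14 (0.87) and Cd68 (0.82). The summed level of the 8 was 54 to 132 CPM with vehicle and 141 to 171 CPM with ESA, and the defining markers Ptprc and Adgre1 were at 1.42 to 4.79 CPM in the 6 libraries. No macrophage marker was called without replicate 2. Chondrocyte markers were present, mainly as Col2a1, which fell from 874, 756 and 859.5 CPM to 608, 335 and 599 CPM (-0.73 ± 0.17), and 3 of 5 tested fell. Their sum went from 792 to 916 CPM with vehicle to 368 to 642 CPM with ESA, beside the matrix genes that fell. The part of any of these cell types in the results was not tested. Without replicate 2 the test was missed by Col1a2 (-0.34, adjusted p = 0.17), Nes (0.59, adjusted p = 0.0509), Map2 (-0.90, adjusted p = 0.17), Tek (-2.05, adjusted p = 0.056), Fabp4 (-0.34, adjusted p = 0.48), Lyz2 (0.57, adjusted p = 0.081), Cd14 (0.72, adjusted p = 0.25), Cd68 (0.52, adjusted p = 0.24) and Col2a1 (-0.52, adjusted p = 0.14). Cd14 was also lost without replicate 1 or replicate 3 (adjusted p = 0.065 and 0.0519), as was Col1a2 (adjusted p = 0.07 and 0.0514), and Fabp4 without replicate 3 (adjusted p = 0.0502).

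The pairs differed in the size of the response. The median absolute log2 ratio of ESA to vehicle over the called genes was 0.39 in pair 1, 0.66 in pair 2 and 0.42 in pair 3, and over all genes 0.17, 0.26 and 0.18. Pair 2 held the largest ratio for 2435 of the 3213 called genes. Genes that rose had median ratios of 0.34, 0.61 and 0.38, and genes that fell -0.42, -0.71 and -0.45. Not every list followed this order. DNA replication genes had pair medians of -0.44, -0.37 and -0.39 and p53 targets 0.19, 0.19 and 0.18, while heme and iron genes had 0.66, 1.22 and 0.51. The share of mitochondrial transcripts was also lowest in ESA replicate 2, and its part in these values was not tested.

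**Figure D5:**
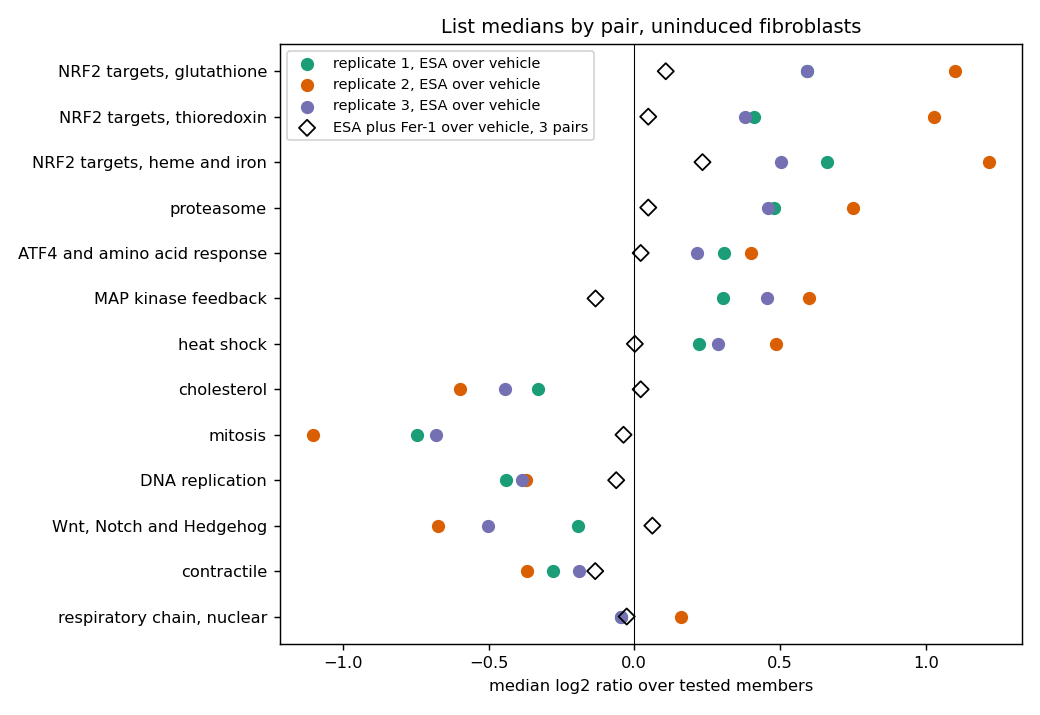
Median log2 ratio over the tested members of 13 gene lists (horizontal axis) in uninduced fibroblasts; coloured circles give ESA over vehicle in each of the 3 pairs and open diamonds ESA plus Fer-1 over vehicle in the fit of 3 pairs. Circles of pair 2 lie farthest from 0 in most lists but not for DNA replication, where the pairs coincide, and where fewer circles are seen they overlap; diamonds lie between -0.13 and 0.23.

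In cells given both compounds expression lay near vehicle, with 0 of 16194 genes called in ESA plus Fer-1 against vehicle (0.0%) by edgeR, 600 at an unadjusted p under 0.05 and 2 called by DESeq2. A fit of the compared libraries alone called 40. Hmox1 was at 116, 149 and 117 CPM with both compounds, just above the vehicle libraries (0.28 log2 units) and below every ESA library. Srxn1 was at 38.3, 55.8 and 48.5 CPM (0.37), Slc7a11 at 11.2, 21.2 and 23.8 CPM (0.26) and Angptl4 at 11.5, 17.5 and 17.6 CPM (0.84). All 3 Angptl4 values were above the vehicle range and all 3 were below the ESA range, and the difference from vehicle was not called. Mocos was within the vehicle range at 1.18, 1.5 and 1.06 CPM. Fosl1 was at 17.8, 18.3 and 14.2 CPM, within its own vehicle range in replicates 1 and 2 and below it in replicate 3. Of the genes that ESA lowered, Lrrc17 was at 25.4, 58.9 and 44.1 CPM, Rgs4 at 159, 123 and 138 CPM and Bmp4 at 63.5, 50 and 64.5 CPM. A missed threshold does not show that expression was the same as with vehicle.

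Against ESA alone, adding Fer-1 raised 1688 genes (10.4%) and lowered 1562 (9.65%). This comparison shares its ESA libraries with the one above, so values are given side by side and the overlap of the calls is not. The proteasome list had a median log2 fold change of 0.56 for ESA over vehicle, -0.50 for ESA plus Fer-1 over ESA and 0.05 for ESA plus Fer-1 over vehicle. The same medians were -0.89, 0.82 and -0.04 for mitosis, -0.48, 0.51 and 0.02 for cholesterol, and 0.46, -0.47 and -0.13 for MAP kinase feedback genes. For the heme and iron list they were 0.81, -0.60 and 0.23, the last being farther from 0 than in the other lists named here. Among the 5 highest of ESA plus Fer-1 over ESA were Ptx3 (2.25), Lrrc17 (2.12), Palmd (2.09) and Matn3 (2.09). The 5 lowest were Serpinb2 (-4.26), Ngef (-2.74), Mocos (-2.73), Prl2c3 (-2.54) and Vmn2r79 (-2.49). Without the replicate block 29 genes were called, and 1069 were called without replicate 2.

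In cells made senescent beforehand the same exposure changed fewer genes, 240 (1.48%) after H2O2 and 99 (0.611%) after etoposide, but counts of calls alone do not show that the response differed. The test of the difference called 42 genes (0.259%) for H2O2, 6 higher (0.0371%) and 36 lower (0.222%), and 120 (0.741%) for etoposide, 28 higher (0.173%) and 92 lower (0.568%), each against uninduced cells. Slc7a11 rose by 1.92 in uninduced cells, 1.72 after H2O2 and 1.83 after etoposide, and its difference was not called in either test (adjusted p = 1 and 0.97). Ptgs2, at 1.40, 1.25 and 1.15, and Fosl1, at 2.07, 1.88 and 1.52, were not called in them either. Mocos did differ, at 2.64 in uninduced cells, 0.20 after H2O2 (adjusted p of the difference 1.80e-04) and 0.48 after etoposide (0.0011). Gsta4 and Srxn1 also differed in both tests, with differences of -1.88 and -1.44 for H2O2 and -1.91 and -1.54 for etoposide.

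Of the 32 proteasome genes none was called in either senescent state, with medians of 0.14 and 0.08 against 0.56 in uninduced cells, and the difference was called for 5 genes for H2O2 and 18 for etoposide. Psmd11 changed by 0.86 ± 0.09 in uninduced cells, by 0.28 after H2O2 and by 0.23 after etoposide. Mitosis genes had medians of -0.89, -0.92 and -0.55, with 25, 6 and 1 called, and the difference was called for none of the 25 in either test. Cholesterol genes had medians of -0.48, -0.13 and -0.10, with 22 lower in uninduced cells and none called in the senescent states, and the difference was called for 1 of the 28 in each test. Some genes that ESA lowered in uninduced cells had a log2 fold change with ESA closer to none after etoposide. Lrrc17 was at -0.27 after etoposide against -2.41 in uninduced cells, Zbtb8b at -0.09 against -2.30 and Ptx3 at -0.51 against -2.23. The differences for the same genes were 2.14, 2.21 and 1.72. These counts moved with single replicates and with the libraries fitted. With the compared libraries only, edgeR called 0 genes in both tests (1319 and 780 at an unadjusted p under 0.05), so that no difference given here was called in that fit. Without replicate 2, 0 genes were called for H2O2 (603 at an unadjusted p under 0.05 in edgeR, with 93 called by DESeq2 on all replicates) and 4 for etoposide. Without replicate 3 the counts were 2 and 502, and without the replicate block 0 and 0, with 221 and 382 at an unadjusted p under 0.05.

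ESA-Me at its own dose changed 266 genes (1.64%) in uninduced cells, 164 upward (1.01%) and 102 downward (0.63%). Its values are set beside those of ESA without a test, since the doses may differ. Hmox1 was at 2.56 for ESA and 1.55 for ESA-Me, Slc7a11 at 1.92 and 1.26, Srxn1 at 2.37 and 1.31, and Lrrc17 at -2.41 and -1.53. List medians were 0.56 and 0.30 for the proteasome, -0.89 and -0.37 for mitosis, -0.48 and -0.29 for cholesterol and 0.46 and 0.37 for MAP kinase feedback. Both comparisons use the same vehicle libraries.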

How the data were processed

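RNA of primary mouse embryonic fibroblasts had been extracted with Trizol and made into libraries with the TruSeq Stranded Total RNA kit, per the labels' protocols. The values are counts per gene, whole numbers as deposited in 1 table of the whole series. The submitters' processing notes name FastQC, HISAT2 2.1.0, featureCounts, edgeR and the GRCm38 build without saying which step each served, and the strand setting of the counting is not given in the sources used here. Genes are named as the file pairs IDs with symbols, and gene coordinates come from GENCODE M21 on GRCm38.

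Of 57010 gene IDs, 21212 were 0 in every library, and 16194 passed edgeR's filterByExpr and held 99.95% of counts. Counts of all 45 libraries (13.5 to 59.6 megareads each) were scaled by TMM and fitted with edgeR 4.0.16 (R 4.3.3) by the quasi-likelihood method, with a term for each of 15 groups and the replicate number within each state as a block. A gene was called at a Benjamini-Hochberg adjusted p under 0.05 over all genes tested. Standard errors are the log2 fold change divided by the square root of F. The block is used because the comparison pairs libraries by replicate number. Same-numbered libraries of the uninduced state deviated together from their group means, with correlations of 0.513, 0.477 and 0.35 for the 3 numbers. For different numbers the correlations were -0.46 to -0.06. Deviations from a mean of 3 libraries sum to 0, so the negative values follow in part from the positive ones and are no separate support. Without the block 23 genes were called. Ratios within pairs were computed from CPM with a pseudocount of 0.5. Named genes are the 15 with the highest and the 15 with the lowest log2 fold change among those called, at a mean of 2 CPM or more in either group and of the same sign in all pairs, and members of gene lists named under their list. The members and lists were chosen with earlier results of these data known, and lists are described by counts and medians without a test. Alternatives were DESeq2 1.42.0, other scaling, no filter, no block, fewer libraries and leaving out each replicate. The fit was checked on simulated counts with known changes. It called 32 of 66 genes given a change of 0.5 log2 units (48.5%). For changes of 1 and 1.5 log2 units it called 54 of 67 (80.6%) and 52 of 67 (77.6%). There were 8 false calls. Depth limits the precision of low genes, and p-values cover the spread between these libraries only. Values of some list members are not reported here.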

Additional observations from a re-analysis of the deposited data

Results flagged for a closer look

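The change with ESA differed between cell states, by the test of the difference in edgeR, for 19 of the genes followed when H2O2-induced cells are set against uninduced cells and for 31 when etoposide-induced cells are. Each value below is the log2 fold change in the induced state minus that in uninduced cells, at an adjusted p under 0.05. Over all genes tested, 42 and 120 were called. Leaving out replicate 2 left 0 and 4, leaving out replicate 3 gave 2 and 502, and edgeR with the compared libraries only gave 0 and 0 (1319 and 780 at an unadjusted p under 0.05), so that none of the values below was called in that last fit.

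For H2O2, the genes that ESA raised in uninduced cells and that had a lower value after induction were Mocos (-2.44), Calr3 (-1.96), Gsta4 (-1.88), Them6 (-1.65), Srxn1 (-1.44), Cbr3 (-1.19), Mlkl (-0.95), Gabarapl1 (-0.76), Abca1 (-0.74), Esd (-0.73), Slc48a1 (-0.66), Psmd11 (-0.58), Psmc2 (-0.56) and Hspb8 (-0.56). Genes that ESA lowered in uninduced cells and that had a higher value after H2O2 were the sphingomyelinase gene Smpd3 (1.2), Ly6c1 (1.11), Glt8d2 (0.99), the forkhead factor gene Foxd1 (0.93) and the imprinted gene Peg10 (0.58).

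For etoposide, the same kinds of gene were found. Those with a lower value were Mocos (-2.15), Gsta4 (-1.91), Osgin1 (-1.79), Havcr2 (-1.66), Srxn1 (-1.54), Them6 (-1.5), Cbr3 (-1.21), Mlkl (-1.07), Gabarapl1 (-0.82), Esd (-0.81), Psma5 (-0.77), Slc48a1 (-0.76), Psmc2 (-0.67), Hspb8 (-0.64), Psmd11 (-0.64), Pomp (-0.57) and Hspd1 (-0.53). Those with a higher value were Zbtb8b (2.21), Lrrc17 (2.14), Ptx3 (1.72), Tbxa2r (1.71), the transcription factor gene Zfp423 (1.59), Slc24a3 (1.55), Smpd3 (1.23), Glt8d2 (1.14), Ly6c1 (1.0), Foxd1 (0.94), Fdft1 (0.6), Peg10 (0.57), Il6st (0.54) and Dusp8 (0.49).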

How the results depend on the processing

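The count of genes that changed with ESA was 3213. It was 23 without the replicate block, 2129 with the compared libraries only and 801 to 2636 when each replicate was left out. DESeq2, median-ratio scaling, no filter and the uninduced libraries only gave 3339, 3211, 3081 and 4740, and without a filter 37.4% of calls were upward against 46.3%. For ESA plus Fer-1 against ESA the 3250 genes became 29 without the block and 1069 to 2483 when each replicate was left out. For ESA plus Fer-1 against vehicle the 0 genes became 2 with DESeq2, 40 with the compared libraries only, 13 with no filter and 2 with the uninduced libraries only. The 42 genes whose change differed after H2O2 became 0 without the block, 93 with DESeq2, 0 with the compared libraries only, 270 with no filter and 0 to 39 when each replicate was left out. The 120 genes for etoposide became 0, 219, 0, 463 and 4 to 502 under the same settings. The median absolute log2 ratios per pair kept their order with pseudocounts of 0.1 and 2. Of 194 genes followed, 177 were called, and none of these changed sign at any setting. Of the 17 not called, 7 changed sign at a setting (Acsl4, Aifm2, Cdkn2a, Fos, G6pdx, Gpx4 and Il6), and 4 gained a call at 1 or more (Chac1, Ftl1, Psmd8 and Txn1). Calls were lost by 170 without the block, 78, 9 and 18 without replicates 2, 1 and 3, 23 with the compared libraries only, 7 with no filter and 4 with DESeq2. The cause was not tested. Depth limits genes near 1 CPM, such as Ptgfr, Gli1 and Nog.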
